A study of Mus musculus with 31 samples.

Results

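The events described here were the mutually exclusive exon events of a splice-junction panel applied to cortex RNA of mouse models of Huntington's disease (HD). RASL-seq anneals a pair of DNA oligonucleotides across each splice junction of a panel, ligates the pairs that meet on an RNA and counts the ligated products by sequencing. Every event in the deposited files has a type and 2 junction counts, called s and l, and the members were all events whose type was mutually exclusive exons (TwoMulx in the files). There were 15 of them among 1922 distinct events, each in a different gene, and they were 14 of 1743 events in the R6/2 set of files, 15 of 1785 in the Q150 set and 14 of 1839 in the Q175 set. The R6/2 set did not list Tpm2, the Q175 set did not list Fgfr3, and 13 members were listed in every set.

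The question put by the design was how the choice between splice junctions differed between each HD model and its wild types. R6/2 HD mice (B6CBA-Tg(HDexon1)62Gpb/3J, 3 mice) carry a transgene of exon 1 of human HTT with an expanded CAG repeat under the human promoter beside their own Htt alleles, and were set against 3 non-transgenic R6/2 WT mice at 3 months. The Q150 line (B6.129P2-Htttm2Detl/150J) has the repeat in the mouse's own Htt, with 4 heterozygous mice (HET, alleles of 150 and 7 glutamines), 4 homozygous mice (HOMO, 150 and 150) and 5 WT (7 and 7) at 7 months. The Q175 line (B6J.129S1-Htttm1Mfc/190ChdiJ) had 4 HET (175 and 7), 3 HOMO (175 and 175) and 5 WT (7 and 7) at 18 months. All 31 mice were untreated, RNA came from cortex of 1 hemisphere, and the study's methods describe the mice as age matched with sexes balanced. Model, age and file set go together, so they cannot be told apart when levels of different sets stand side by side. The R6/2 WT mice are numbered 3, 4 and 6 and the R6/2 HD mice 860, 868 and 869. Mouse number and genotype therefore cannot be told apart in the R6/2 set. The labels call every knock-in mouse Q150 in its title, and the line was therefore taken from the number of glutamines in the genotype and, for WT, from the list of events in the mouse's file. The genotype field opens with Q175 for every knock-in mutant, and the study's methods give the HOMO group sizes of the lines the other way round from the labels, while its supplement gives them as the labels do. Which line a HOMO value belongs to thus rests on the glutamine numbers.

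Mutually exclusive exons lie next to each other between the same flanking exons, and a mature transcript normally holds 1 of them and not the other. Many such pairs arose by duplication of an exon, so the alternatives encode versions of the same stretch of protein, as in the muscle and brain forms of tropomyosin, in pyruvate kinase and in the ligand-binding domain of fibroblast growth factor receptors. RNA-binding proteins of the PTBP, RBFOX, MBNL and CELF families are known to steer choices of this kind in neurons and muscle.

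For all 15 members the span given in the files equalled, to the base, the distance between 2 exons of the same gene on GRCm38 that enclose alternative single exons. The match left more than 1 choice of exon or flank in a few members, and the pair shown was then taken as described with its sequences. The pairs came from GENCODE M21, except that of Ogdh, which came from RefSeq. In 10 members the alternatives had the same length and in the other 5 the lengths differed. In all 15 the lengths left the same reading frame after either exon. Over the 10 pairs of equal length, 48.8% to 71.9% of bases were identical at the same position. Exons ran from 33 bases in Camk2d to 194 bases in Calu. The positions printed in the files lie inside the named gene on GRCm38 for 1 of the 15 members, so all coordinates below are those of the annotation and none is that of the files.

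The first set shows the paired exons of equal length from the members whose junction share changed in a model, or differed in change between models, so that the size of the swap can be read base by base. Capitals mark the bases that differ between the paired exons at the same position, each sequence runs 5′ to 3′ on the transcribed strand, and coordinates are GRCm38. The exons of Calu lie at chr6:29361294-29361487 and chr6:29361560-29361753 on the plus strand and are 65.5% identical. Those of Dnm1 lie at chr2:32334682-32334820 and chr2:32333066-32333204 on the minus strand, with 71.9% identity, and 1 transcript has a version of the downstream exon of 52 bases that was not used. Those of Pfkp lie at chr13:6597859-6598011 and chr13:6593101-6593253 on the minus strand, with 58.8% identity. Those of U2af1 lie at chr17:31652502-31652568 and chr17:31651646-31651712 on the minus strand, with 65.7% identity, and are the protein-coding ones of 3 single exons between these flanks, while another pair of exons at the same distance encloses only 1. Those of Mapk9 lie at chr11:49873836-49873907 and chr11:49874264-49874335 on the plus strand, with 65.3% identity.
Calu upstream exon: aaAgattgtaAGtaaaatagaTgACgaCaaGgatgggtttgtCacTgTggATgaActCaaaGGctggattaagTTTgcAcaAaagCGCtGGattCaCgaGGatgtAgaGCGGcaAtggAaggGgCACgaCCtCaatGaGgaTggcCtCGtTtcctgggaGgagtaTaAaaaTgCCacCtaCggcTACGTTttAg
Calu downstream exon: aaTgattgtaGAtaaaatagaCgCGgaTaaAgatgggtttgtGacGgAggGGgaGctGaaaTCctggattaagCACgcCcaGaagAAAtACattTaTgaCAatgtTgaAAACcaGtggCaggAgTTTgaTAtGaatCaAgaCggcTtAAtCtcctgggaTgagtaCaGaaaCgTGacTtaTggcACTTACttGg
Dnm1 upstream exon: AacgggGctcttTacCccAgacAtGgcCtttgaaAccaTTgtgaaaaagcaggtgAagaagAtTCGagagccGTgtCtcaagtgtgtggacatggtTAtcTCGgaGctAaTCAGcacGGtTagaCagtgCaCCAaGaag
Dnm1 downstream exon: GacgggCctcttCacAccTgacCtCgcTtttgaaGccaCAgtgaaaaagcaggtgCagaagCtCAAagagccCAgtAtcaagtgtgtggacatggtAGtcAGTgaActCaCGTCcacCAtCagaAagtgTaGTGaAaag
Pfkp upstream exon: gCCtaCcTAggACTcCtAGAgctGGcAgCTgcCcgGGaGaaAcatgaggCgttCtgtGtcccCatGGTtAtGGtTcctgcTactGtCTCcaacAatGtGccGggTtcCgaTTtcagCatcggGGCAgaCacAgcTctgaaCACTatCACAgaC
Pfkp downstream exon: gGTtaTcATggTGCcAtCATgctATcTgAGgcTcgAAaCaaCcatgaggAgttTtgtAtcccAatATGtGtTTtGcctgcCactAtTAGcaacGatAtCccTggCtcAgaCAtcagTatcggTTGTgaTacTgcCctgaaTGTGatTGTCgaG
U2af1 upstream exon: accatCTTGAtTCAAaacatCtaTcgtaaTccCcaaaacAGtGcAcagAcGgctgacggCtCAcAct
U2af1 downstream exon: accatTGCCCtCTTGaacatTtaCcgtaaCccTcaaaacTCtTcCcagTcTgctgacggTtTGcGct
Mapk9 upstream exon: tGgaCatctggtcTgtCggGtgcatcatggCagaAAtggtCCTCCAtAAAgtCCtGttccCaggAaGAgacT
Mapk9 downstream exon: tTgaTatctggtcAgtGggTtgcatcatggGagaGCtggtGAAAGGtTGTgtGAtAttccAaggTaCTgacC

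The second set shows Camk2d and Fgfr3, called members whose alternatives differ in length, all in lower case because no base-by-base pairing was made. The exons of Camk2d lie at chr3:126802937-126802969 (33 bases) and chr3:126808208-126808249 (42 bases) on the plus strand. A further exon of 60 bases, annotated in a transcript that is not protein coding, lies between them and is not shown. Those of Fgfr3 lie at chr5:33731281-33731431 (151 bases) and chr5:33732117-33732261 (145 bases) on the plus strand.
Camk2d upstream exon: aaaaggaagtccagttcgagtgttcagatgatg
Camk2d downstream exon: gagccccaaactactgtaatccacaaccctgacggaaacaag
Fgfr3 upstream exon: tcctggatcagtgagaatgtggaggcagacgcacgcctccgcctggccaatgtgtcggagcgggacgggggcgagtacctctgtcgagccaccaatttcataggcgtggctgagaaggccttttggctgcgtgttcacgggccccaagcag
Fgfr3 downstream exon: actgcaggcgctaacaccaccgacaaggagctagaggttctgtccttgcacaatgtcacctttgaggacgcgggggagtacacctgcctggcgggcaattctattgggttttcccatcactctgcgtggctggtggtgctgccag

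The sources used here say for cassette exons that s is the short, skipped form and l the long form. They do not say what s and l are in a mutually exclusive event. In the annotation, 11 transcripts of Camk2d and 1 of Tpm1 skip the exons altogether. Pfkp, U2af1, Calu, Camk2d and Mef2a each have 1 annotated chain of 2 or more exons between the flanks. The s share is thus a share of the s and l counts and not of all transcripts. In 3 members the junction could be tied to an exon, because a cassette event of the same gene carried the identical counts in every mouse of every set and its borders fell on a known exon. In Ogdh, s was the junction of the upstream exon of 91 bases and l that of the downstream exon of 103 bases. In U2af1, s was the junction of the downstream exon of 67 bases, and l belonged to another exon between the same flanks, either the upstream one of 67 bases or one of 40 bases in a non-coding transcript, which was not settled. In Camk2d, l was the junction of the exon of 42 bases, and s belonged to another exon between the same flanks, either that of 33 or that of 60 bases, which was not settled. For the other 12 members the exon behind each junction was not settled, and their results are given as the share of s in the sum of s and l, in percent, with changes as log2 of s over l.

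A mouse had between 2171709 and 4337557 junction counts in R6/2 files, between 2970207 and 5219877 in Q150 files and between 3351064 and 5256516 in Q175 files, of which the members took between 0.612% and 0.753%. No file listed a junction count below 4. Of the marker genes looked for, 6 of 8 neuronal and 2 of 4 oligodendrocyte genes had a listed event, and 0 of 4 astrocyte and 0 of 5 muscle genes did. A gene without an event may have no probe on the panel, so these counts do not check the labelled tissue. The reads carry no molecular identifiers, so the 95% Wilson intervals quoted for single mice cover counting error only. The p-values measure only the spread between these mice.

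The members differed widely in how their counts fell between the paired junctions, which also depends on the probes. Pfkp, a platelet-type phosphofructokinase of glycolysis, had nearly all its counts at the l junction, with an s share between 0.112% and 1.10% over 31 mice. Fgfr3, Dlg3 and Pkm2 stood at the other end, with s shares of 96.6% to 99.5% (19 mice), 96.9% to 98.9% and 95.1% to 98.5%. Tpm2, a tropomyosin of the actin cytoskeleton, held 5.62% to 40.0% s over 25 mice on totals of 45 to 121 counts. The remaining 10 members lay between these, from a median s share of 39.2% in U2af1 to 91.7% in Tpm1. Precision followed depth and the evenness of the share: the interval of a single mouse was at most 2.26 percentage points wide in Mef2a and 3.53 in Mapk9, but up to 16.1 in Camk2d, 25.1 in Ubr2 and 27.5 in Tpm2.

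In R6/2 HD mice, Calu, Mef2a, Pfkp, Camk2d and Dnm1 had a lower s share than in WT and U2af1 had a higher one. That was 6 of 14 members, or 42.9%, where 28.6% of all 1743 events passed the same test (limma, Benjamini-Hochberg adjusted p under 0.05 over all events). By direction, 5 of 14 members passed with a lower s share against 7.46% of all events, and 1 of 14 passed with a higher s share against 21.1% of all events. Nearly all the other events are cassette exons, where s is skipping, so the directions of members and cassettes are not the same quantity. The median absolute log2 change was 0.43 for the members and 0.43 for all events. In tissue RNA, fewer cells of a type and less RNA per cell cannot be told apart.

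In Q150 HOMO mice the s share fell in Fgfr3, Camk2d and Dnm1, which was 3 of 15 members against 23.9% of all 1785 events, and against 4.09% of all events for a lower s share alone. In Q175 HOMO mice it fell in Camk2d and Calu, 2 of 14 members against 7.07% of all 1839 events and 1.47% for a lower s share. Without R6/2 WT replicate 6 the R6/2 calls of Dnm1, U2af1 and Camk2d were lost. The Q175 HOMO call of Calu was lost without WT replicate 9 or any 1 of the HOMO mice. No member passed in Q150 HET mice, where 3.47% of all events did, or in Q175 HET mice, where 0.598% did. At an unadjusted p below the same threshold, limma gave 2 of 15 members in Q150 HET, against 18.1% of all events, and 1 of 14 in Q175 HET, against 10.8%. Median absolute log2 changes of members and of all events were 0.23 and 0.22 in Q150 HET, 0.18 and 0.32 in Q150 HOMO, 0.16 and 0.16 in Q175 HET, and 0.34 and 0.22 in Q175 HOMO. HET and HOMO mice of a line were set against the same WT mice. The median of all events moved by 0.19 in Q150 HOMO, and on a scale centred on it 6 of 15 members passed, all lower, with Calu, Mapk9 and Ogdh added, where 18.3% of all events passed and 8.80% passed lower on that scale. Over the 5 comparisons with WT, 7 of 15 members passed at least once, where 36.5% of all 1922 events did, and Camk2d passed in 3. Because s is the upstream exon in one member and the downstream exon in another, the direction of s has no shared meaning across members.

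Camk2d encodes the delta subunit of calcium/calmodulin-dependent protein kinase II, whose variable linker is built from alternative exons that are known to steer the kinase to different places in the cell. Its s share was 74.0%, 75.7% and 80.5% in R6/2 WT replicates 3, 4 and 6, and 66.2%, 63.5% and 64.4% in HD replicates 860, 868 and 869. All HD mice lay below all WT mice. The log2 change was -0.84 (SE 0.24, limma adjusted p = 0.0195).

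In the Q150 set the s share of Camk2d was 77.8%, 79.5%, 73.4%, 81.5% and 81.1% in WT replicates 1 to 5, against 69.6%, 71.3%, 70.3% and 79.2% in HET and 61.8%, 63.1%, 67.1% and 74.8% in HOMO. HOMO replicate 4 and HET replicate 4 overlapped the WT range, and the other mutant mice lay below it. In the Q175 set WT mice had 84.8%, 84.2%, 87.2%, 86.7% and 87.2%, HET mice 79.3%, 77.5%, 80.6% and 80.8%, and HOMO mice 80.8%, 64.9% and 68.0%. No mutant mouse of that set reached the lowest WT mouse, and HOMO replicate 1 stood level with the HET mice. The change was -0.87 (SE 0.22, adjusted p = 0.0061) in Q150 HOMO and -1.26 (SE 0.26, adjusted p = 0.00107) in Q175 HOMO. It was -0.47 (SE 0.22, adjusted p = 0.26) in Q150 HET and -0.65 (SE 0.23, adjusted p = 0.255) in Q175 HET, both by limma. With all 10 knock-in WT mice the Q150 HET value was -0.83 (adjusted p = 0.0209), in a fit where 8.26% of all events passed. That fit adds the Q175 WT mice of 18 months, whose mean s share was 86.0%, against 78.7% in Q150 WT. The larger value therefore mixes genotype with line, age and file set. HOMO against HET gave -0.40 (SE 0.23, adjusted p = 0.457) and -0.61 (SE 0.27, adjusted p = 0.356).

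Both Camk2d junctions were more abundant in R6/2 HD, counted as CPM, the counts per 1000000 junction counts of the mouse. The s junction stood at 33.0 ± 4.07 in WT and 51.3 ± 1.18 in HD (mean and SD, n = 3 each), and the l junction of the 42-base exon at 10.2 ± 2.68 and 28.1 ± 1.13, so the ratio of means was 1.55 for s and 2.76 for l. The l junction was 2.59 times as abundant in Q150 HOMO and 2.80 times in Q175 HOMO, without overlap with WT, while the s junction was at 1.37 times without overlap and 1.15 times with overlap. These levels are relative to the panel's total, carry no test here and are a description.

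Cassette events of Camk2d that share a member junction showed the same exon from other sides, and are no independent measure of it. Where the 42-base exon was counted against the junction that skips both alternatives, the log2 ratio of skipping to inclusion was -1.06 (SE 0.23, adjusted p = 0.00493) in R6/2 HD and -1.33 (SE 0.23, adjusted p = 0.000152) in Q175 HOMO, and -0.59 (SE 0.24, adjusted p = 0.0808) in Q150 HOMO. Where the s junction was counted against the same skipping junction, the ratio was -0.22 (SE 0.18, adjusted p = 0.401) in R6/2 HD, 0.28 (SE 0.16, adjusted p = 0.222) in Q150 HOMO and -0.07 (SE 0.17, adjusted p = 0.871) in Q175 HOMO. The skipping junction had 359 to 524 counts in R6/2 WT mice and the member's junctions 81 to 103 and 25 to 33, although counts of different junctions also depend on their probes. A further cassette event, in which the 42-base junction is the skipped form, rose by 1.95 (SE 0.25, adjusted p = 0.00012) in R6/2 HD, 1.14 (SE 0.19, adjusted p = 0.000183) in Q150 HOMO and 1.25 (SE 0.23, adjusted p = 0.000373) in Q175 HOMO.

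The Camk2d call in R6/2 was lost without WT replicate 6 (adjusted p = 0.0658), HD replicate 868 (0.0672) or HD replicate 869 (0.0639), and the knock-in calls held without each mouse in turn. The numbers in the titles of knock-in mice were split into a low and a high range. Within these ranges Q150 HOMO differed from WT by -14.4 percentage points (low, 2 against 3 mice) and -10.4 points (high, 2 against 2). In the Q175 set all 3 HOMO mice have high numbers, and they differed by -15.7 points from the 2 WT mice of that range. HOMO replicate 1 is numbered 8179, while the other high numbers of the Q175 set run from 3857 to 3903. The high range thus does not match that mouse with WT mice of nearby numbers.

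Calu encodes calumenin, a calcium-binding protein of the secretory pathway built of EF hands, and its alternative exons of 194 bases each encode part of that array. In the R6/2 set the s share was 69.2%, 68.1% and 66.7% in WT replicates 3, 4 and 6 and 51.9%, 47.5% and 48.2% in HD replicates 860, 868 and 869. The groups were far apart, with every HD mouse below every WT mouse. The change was -1.13 (SE 0.16, adjusted p = 0.000238).

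The level of the event as a whole did not separate the R6/2 groups, with a ratio of means of 0.957 for both junctions together. The s junction went from 98.5 ± 11.3 to 68.2 ± 2.50 CPM and the l junction from 46.6 ± 7.28 to 70.6 ± 6.00 (mean and SD, n = 3 each), each without overlap. One junction was thus lower while the other was higher.

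In Q175 mice Calu stood at 65.4%, 65.7%, 64.8%, 68.8% and 64.2% in WT replicates 6 to 10, at 62.3%, 61.2%, 60.7% and 65.6% in HET and at 55.4%, 59.2% and 59.4% in HOMO. All HOMO mice lay below all WT and all HET mice. The HOMO change was -0.48 (SE 0.14, adjusted p = 0.0273), and that call was lost without WT replicate 9 (adjusted p = 0.0801), without HOMO replicate 1 (0.18), 2 (0.0627) or 3 (0.0623), with the mouse-number range as a term (0.0763) and without the variance trend (0.0586). Within the high range the 3 HOMO mice, among them replicate 1 with the distant number 8179, differed by -8.45 points from the 2 WT mice.

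In Q150 mice Calu stood at 68.3%, 68.3%, 65.7%, 60.9% and 69.9% in WT, at 63.7%, 63.4%, 57.7% and 64.8% in HET and at 55.6%, 60.7%, 65.0% and 57.4% in HOMO, with overlap between the groups. The HOMO change of -0.43 (SE 0.16, adjusted p = 0.0524) missed the threshold. It passed without WT replicate 4 (adjusted p = 0.0246), HET replicate 4 (0.0486) or HOMO replicate 3 (0.0262). With all mice it passed with the mouse-number range as a term (-0.44, adjusted p = 0.0243), with all 10 knock-in WT mice (-0.40, adjusted p = 0.0188) and on the centred scale (-0.63, adjusted p = 0.00849). The fit with all 10 WT mice pools WT of both lines, ages and file sets. The change was larger in R6/2 HD than in Q175 HOMO by -0.66 (SE 0.20, adjusted p = 0.025), 1 of 2 members among 13 that differed in that contrast, where 13% of the 1696 shared events did. That call was lost without R6/2 WT replicate 3 (adjusted p = 0.0545), R6/2 HD replicate 868 (0.0705) or 869 (0.0598), or Q175 HOMO replicate 2 (0.0636) or 3 (0.0596), and with the mouse-number range as a term (0.0864). Against Q150 HOMO the difference was -0.70 (SE 0.23, adjusted p = 0.0709), and it passed with that term (adjusted p = 0.0482).

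Mef2a encodes a MADS-box transcription factor that controls neuronal and muscle genes, and its exclusive exons code for part of the region next to the DNA-binding domain. The s share was 87.8%, 87.5% and 88.1% in R6/2 WT and 82.1%, 82.6% and 82.2% in R6/2 HD, on totals of 3384 to 7486 counts per mouse. The groups did not overlap, and the mice within each lay close together. The change was -0.63 (SE 0.10, adjusted p = 0.000488).

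The l junction of Mef2a went from 187 ± 14.8 to 279 ± 25.2 CPM, without overlap, and the s junction from 1343 ± 78.2 to 1296 ± 106, with overlap (mean and SD, n = 3 each). In Q150 mice the s share was 84.5%, 86.2%, 84.6%, 86.2% and 85.8% in WT, 87.4%, 85.5%, 86.8% and 87.9% in HET and 87.4%, 86.0%, 86.9% and 85.4% in HOMO. In Q175 mice it was 84.8%, 84.7%, 83.9%, 84.8% and 84.5% in WT, 82.8%, 85.8%, 84.8% and 85.8% in HET and 84.2%, 84.4% and 84.3% in HOMO. HOMO overlapped WT in both lines. The changes were 0.11 (SE 0.10, adjusted p = 0.438) and -0.02 (SE 0.09, adjusted p = 0.923).

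The R6/2 change of Mef2a differed from both by a test of the difference. It was -0.75 (SE 0.14, adjusted p = 0.0018) against the change in Q150 HOMO, where 3 of 14 members and 6.96% of 1680 shared events differed, and -0.61 (SE 0.13, adjusted p = 0.00185) against the change in Q175 HOMO. The call held in R6/2 and in both differences without each mouse in turn and under all other settings tried.

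Pfkp makes the platelet-type phosphofructokinase, which catalyses the committed step of glycolysis and is abundant in brain. Its rare s junction had 16, 24 and 27 counts in R6/2 WT replicates 3, 4 and 6 beside 2867, 2159 and 3375 of l, and 12, 5 and 15 in HD replicates 860, 868 and 869 beside 3756, 4473 and 4938. The s share was thus 0.555%, 1.10% and 0.794% in WT and 0.318%, 0.112% and 0.303% in HD, with no overlap. The change was -1.79 (SE 0.44, adjusted p = 0.00906), and it rests on counts near the lowest listed in the files.

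In Q150 mice the s share of Pfkp was 0.518%, 0.488%, 0.510%, 0.711% and 0.806% in WT, 0.406%, 0.515%, 0.400% and 0.692% in HET and 0.560%, 0.641%, 0.900% and 0.524% in HOMO, with overlap. In Q175 mice it was 0.624%, 0.578%, 0.645%, 0.564% and 0.532% in WT, 0.526%, 0.335%, 0.454% and 0.454% in HET and 0.476%, 0.391% and 0.411% in HOMO, with every HET and HOMO mouse below every WT mouse. The change of Pfkp in Q150 HOMO was 0.11 (SE 0.26, adjusted p = 0.806) and in Q175 HOMO -0.46 (SE 0.28, adjusted p = 0.365). The difference between R6/2 HD and Q150 HOMO was -1.90 (SE 0.47, adjusted p = 0.0148), and it missed the threshold without R6/2 WT replicate 4 (adjusted p = 0.0525) or HD replicate 868 (0.0557). Against Q175 HOMO it was -1.33 (SE 0.46, adjusted p = 0.0538), which passed without R6/2 WT replicate 3 (0.0297), HD replicate 860 (0.0261) or HD replicate 869 (0.0359), and with all mice without the variance trend (0.0487), on the centred scale (0.0498) and with a pseudocount of 5 (0.0438).

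Dnm1 encodes dynamin 1, the GTPase that pinches synaptic vesicles from the membrane, and its alternative exons of 139 bases lie in the middle domain. The s share was 63.1%, 62.4% and 66.2% in R6/2 WT and 47.4%, 53.7% and 58.9% in R6/2 HD. The groups did not overlap, but HD mice spread over more than 10 points. The change of -0.63 (SE 0.18, adjusted p = 0.0204) lost its call without WT replicate 6 (adjusted p = 0.0823), without HD replicate 860 (0.0756) and without the variance trend (0.074).

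In the Q150 set Dnm1 stood at 64.3%, 70.4%, 66.6%, 55.6% and 55.8% in WT replicates 1 to 5, at 60.7%, 61.1%, 61.5% and 52.9% in HET and at 54.1%, 54.0%, 50.8% and 56.1% in HOMO. WT replicates 4 and 5, which have high mouse numbers, lay with the HOMO mice. The HOMO change was -0.53 (SE 0.17, adjusted p = 0.0299), with a difference in share of -13.0 points in the low range and -2.22 points in the high range. That call was lost without WT replicate 1 (adjusted p = 0.0634), 2 (0.0857) or 3 (0.0797), without HOMO replicate 1 (0.0602), 2 (0.0549) or 3 (0.0846), and without the variance trend (0.0741). In Q175 mice Dnm1 had 63.1%, 58.0%, 61.8%, 60.0% and 66.7% in WT, 57.3%, 57.0%, 61.7% and 61.1% in HET and 57.4%, 54.5% and 56.1% in HOMO. All HOMO mice lay below all WT mice, with a change of -0.35 (SE 0.13, adjusted p = 0.101) that did not pass.

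Fgfr3 is a receptor tyrosine kinase for fibroblast growth factors, and the choice between its alternative exons is known to set which ligands the receptor binds. The l junction was rare, with 8, 6, 9, 9 and 7 counts in Q150 WT replicates 1 to 5 and 25, 14, 19 and 21 in HOMO replicates 1 to 4, beside 656 to 1296 counts of s. The s share was 99.4%, 99.5%, 99.3%, 99.1% and 99.3% in WT and 96.6%, 97.9%, 98.5% and 98.3% in HOMO. Every HOMO mouse lay below every WT mouse.

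The change of Fgfr3 in Q150 HOMO was -1.61 (SE 0.35, adjusted p = 0.00186), and the share differed by -2.13 points in the low range of mouse numbers and -0.807 points in the high range. Its HET mice had 6, 8, 19 and 17 counts of l and s shares of 99.1%, 99.2%, 97.9% and 98.2%, spread from the WT to the HOMO range (log2 change -0.97, SE 0.35, adjusted p = 0.136). In R6/2 mice the s share was 99.1%, 98.6% and 99.5% in WT and 99.4%, 98.9% and 98.7% in HD, with overlap. The ratio did not pass (-0.26, SE 0.49, adjusted p = 0.728), although the s junction stood at 349 ± 45.0 CPM in WT and 171 ± 16.0 in HD (mean and SD, n = 3 each), without overlap. The difference in change between R6/2 HD and Q150 HOMO was 1.35 (SE 0.58, adjusted p = 0.173).

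U2af1 encodes the small subunit of the splicing factor U2AF, which reads the AG at the 3′ splice site, and its exclusive exons of 67 bases give variants of that subunit. It was the member whose s share rose: the downstream exon had 34.6%, 36.9% and 35.6% in R6/2 WT and 44.5%, 44.0% and 40.1% in HD. The groups did not overlap. The s junction went from 157 ± 12.0 to 206 ± 10.8 CPM, without overlap, and the l junction from 283 ± 9.61 to 274 ± 12.6, with overlap (mean and SD, n = 3 each).

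The change of U2af1 was 0.44 (SE 0.12, adjusted p = 0.0168), and a cassette event with the same counts in every mouse gave the same values. The median of all events moved by 0.18 in R6/2 HD, and on a scale centred on that median U2af1 stood at 0.29 (adjusted p = 0.113), which left 5 of 14 members called, all lower, where 27.6% of all events passed and 11.2% passed lower on that scale. The call was also lost without the variance trend (adjusted p = 0.0866), without WT replicate 3 (0.053) or 6 (0.0506) and without HD replicate 868 (0.0591). In Q150 mice the s share of U2af1 was 38.6%, 36.1%, 37.4%, 39.9% and 44.5% in WT, 44.8%, 39.2%, 40.3% and 48.3% in HET and 43.0%, 45.1%, 45.4% and 42.1% in HOMO, where WT replicate 5 lay with the HOMO mice. In Q175 mice it was 35.9%, 38.0%, 34.2%, 39.7% and 35.3% in WT, 38.3%, 34.6%, 37.3% and 40.0% in HET and 38.3%, 42.1% and 37.7% in HOMO, with overlap. The changes in Q150 and Q175 HOMO were 0.28 (SE 0.13, adjusted p = 0.13, or 0.0487 without Q150 WT replicate 5 and 0.0154 with all 10 knock-in WT mice) and 0.17 (SE 0.11, adjusted p = 0.416). The fit with all 10 adds the Q175 WT mice, whose mean share was 36.6%, against 39.3% in Q150 WT.

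The other 8 members passed in none of the comparisons with WT. Mapk9, the stress kinase JNK2, whose exclusive exons lie in the kinase domain, came nearest: its s share was 61.8%, 62.4% and 61.0% in R6/2 WT and 64.3%, 68.4% and 66.2% in HD, without overlap (log2 change 0.28, SE 0.10, adjusted p = 0.0505). It passed with a mean of at least 50 counts (adjusted p = 0.0493), a pseudocount of 5 (0.048), the quasi-binomial model (0.0482) and without HD replicate 860 (0.0239). In Q150 HOMO the value was -0.18 (SE 0.09, adjusted p = 0.151), from 59.4% to 64.2% in WT and 57.0% to 59.8% in HOMO. The difference between these changes was 0.47 (SE 0.13, adjusted p = 0.0339), which lost its call without the variance trend (adjusted p = 0.103). It was also lost without R6/2 WT replicate 3 (0.0645), 4 (0.0541) or 6 (0.0756), R6/2 HD replicate 868 (0.105) or 869 (0.0662), Q150 WT replicate 3 (0.0505) or 4 (0.061), and Q150 HOMO replicate 1 (0.0625) or 2 (0.0521).

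Mapk14, the p38 alpha stress kinase, had changes between -0.13 and 0.11 and a lowest adjusted p of 0.628 over 5 comparisons. Its s share ran from 70.8% to 81.2% with a median of 77.3%. Dlg3, a synaptic scaffold of the PSD-95 family, had changes between -0.15 and 0.43 with a lowest adjusted p of 0.333.

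Of the metabolic members, Ogdh, a subunit of the oxoglutarate dehydrogenase of the citric acid cycle, had a share of the upstream exon between 62.4% and 71.6% and changes between -0.13 and 0.22 (lowest adjusted p = 0.203). Pkm2 (current symbol Pkm), the pyruvate kinase whose exclusive exons set the M1 and M2 forms, had changes between -0.13 and 0.48 (lowest adjusted p = 0.269). Both had SEs of up to 0.10 and 0.31, so a change of the size called in Calu in R6/2 HD would have been many times the SE in Ogdh.

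The tropomyosins Tpm1 and Tpm2 had changes of -0.47 to 0.29 and of -0.52 to -0.20, with SEs up to 0.38 and 0.52. Ubr2, a ubiquitin ligase of the N-degron pathway, ranged from -0.51 to 0.72 with SEs up to 0.50 and totals of 50 to 144 counts per mouse. In Q150 HOMO, Ubr2 passed without HOMO replicate 4 (adjusted p = 0.0281). The lowest adjusted p-values of the 3 genes by limma were 0.376, 0.507 and 0.237.

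No member passed in HOMO against HET mice of either line, where 2.18% of all events passed in Q150 and 0.816% in Q175, and 0 of 15 and 2 of 14 members had an unadjusted p below the threshold in limma, against 14.1% and 10.9% of all events. No member differed in change between Q150 HOMO and Q175 HOMO, against 3.41% of 1731 shared events, with 2 of 14 at an unadjusted p below the threshold against 17.8% of all events, and Ubr2 did without Q150 HOMO replicate 4 (adjusted p = 0.0463). The 4 Q175 HET mice have low numbers and the 3 HOMO mice high ones, so no range holds both. With the range as a term, which then rests on the WT mice, 0 of 14 members passed as well. Where 0.816% of all events passed without that term, such a count says nothing about the members. The tests had 3 or 4 HOMO mice a group and do not show that the groups were alike.

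Other event types in the member genes were few. There were 10 cassette events in 5 of the genes in the R6/2 set, of which 4 passed (3 higher, 1 lower), and 9 or 10 in the knock-in sets, of which 1 passed in Q150 HOMO and 2 in Q175 HOMO, where 28.6%, 23.9% and 7.07% of all events passed. All of these but 1 carry junction counts of Camk2d or U2af1 members and restate their calls. The other was a cassette exon of Ogdh in R6/2 HD whose skipped share went from 74.8% ± 1.88 to 81.1% ± 2.90 (SD, n = 3 each), a log2 change of 0.54 (SE 0.17, adjusted p = 0.0329).

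RNA-binding proteins known to regulate exclusive exons had cassette events of their own on the panel. In R6/2 HD, 10 of 20 events in 13 such genes passed, 8 towards skipping and 2 away from it, where 28.6% of all events passed and 21.1% passed with a higher s share. The passed events lay in 8 genes, and Mbnl2 had events in both directions, at 0.81 and -0.56. They included Celf4 at 2.57 (SE 0.12, adjusted p = 2.76e-08), Rbfox2 at 2.22 (SE 0.42, adjusted p = 0.00162) and Ptbp2, the neuronal polypyrimidine tract binding protein, at 1.19 (SE 0.22, adjusted p = 0.00145). Another event at the same position of Rbfox2 did not pass in R6/2 HD. In Q150 HOMO 6 of 19 passed and in Q175 HOMO 3 of 20, all towards skipping, and in HET mice 2 of 19 and 0 of 20, where 23.9%, 7.07%, 3.47% and 0.598% of all events passed. Both events at that Rbfox2 position were among the 3 in Q175 HOMO. The others with a passed event were A2bp1 (Rbfox1), Mbnl1, Mbnl2, Hnrnpa1 and Celf2 in R6/2 HD, and Mbnl1, Mbnl2, Hnrnpa1, Ptbp2 and Rbfox2 in 1 or both HOMO groups. In Q150 HET the passed events were those of Hnrnpa1 and Ptbp2. Celf4 was among those called in Q150 HOMO (0.67, SE 0.12, adjusted p = 0.000241) and in Q175 HOMO (0.64, SE 0.09, adjusted p = 2.69e-06). Whether these events bear on the members was not tested.

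A further list of genes was drawn up for exclusive exons. It holds 7 of the 14 members in the R6/2 and Q175 sets and 8 of 15 in the Q150 set. Whether each gene on it has such exons was not tested. Of its events, 11 of 27 passed in R6/2 HD (5 higher, 6 lower). In Q150 mice 1 of 28 passed in HET and 9 of 28 in HOMO (6 higher, 3 lower). In Q175 mice 0 of 29 passed in HET and 6 of 29 in HOMO (4 higher, 2 lower). The shares over all events were 28.6%, 3.47%, 23.9%, 0.598% and 7.07%. Linked events of Camk2d made up 3 of the 11, 2 of the 9 and 3 of the 6. The events of genes that are not members were cassettes, among them 1 of Gria3, an AMPA receptor subunit, with 0.50 (SE 0.14, adjusted p = 0.02) in R6/2 HD and 0.60 (SE 0.14, adjusted p = 0.00405) in Q175 HOMO. Events of Fgfr2, Gnas, Dnm2 and Atp2b1 passed in R6/2 HD, and those of Fgfr2, Dnm2, Mef2c, Atp2b1 and Cacna1d in Q150 HOMO. The passed events of Gnas share a border and lie at nearly the same position. The event of Dnm2, the dynamin that most tissues use, was the same one in Q150 HET (0.73, SE 0.17, adjusted p = 0.0186) and in Q175 HOMO (0.75, SE 0.20, adjusted p = 0.0142). An event of Gria2, another AMPA receptor subunit, passed in Q175 HOMO (0.44, SE 0.13, adjusted p = 0.026).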

How the data were processed

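Cortical RNA of 31 mice was read by RASL-seq. The deposited files hold the authors' junction counts (whole numbers, not normalised), with the splice type and the s and l count of each event. The aligner and counter are not given in the sources used here. The submitters' processing notes list the build mm10, while the printed position lies inside the named gene on GRCm38 for 1 of the 15 members. Ratios were formed as log2((s + 0.5)/(l + 0.5)) for all events of a set with a mean count of at least 10, and fitted with limma 3.58.1 (R 4.3.3) with a mean per group, empirical Bayes with a variance trend and Benjamini-Hochberg adjustment over all events (threshold 0.05). Differences of change between models were tested over the events both sets list. Python 3.11.15, pandas 2.3.3 and scipy 1.17.1 gave shares, levels in CPM and Wilson intervals. The fit was tested on simulated data with 200 changed events. Samples were grouped by the labels' genotypes. Alternatives were no variance trend, centring on the median event, a mean of at least 50 counts, no minimum, a pseudocount of 5, a quasi-binomial model, the compared groups alone, the mouse-number range as a term, all 10 knock-in WT mice and leaving out each mouse. All mutually exclusive events were named. Members passing in a comparison with WT got every mouse's value, the others ranges (with R6/2 values for Mapk9, which lay nearest the threshold). Events of other genes were named from 2 lists, regulators of exclusive exons and genes picked for exclusive exons. The members and lists were chosen with earlier results of these data known. Probe sequences were not used here. The exon sequences of 1 called member are not reported here.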

Additional observations from a re-analysis of the deposited data

Results flagged for a closer look

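In a group of 4 or 5 mice, 1 mouse stood apart from the others in 2 of the 73 pairs of a member and a group looked at, where chance gives about 1 in 20. The s share of Dnm1 in Q150 HET replicate 4 was 52.9%, against 60.7% in the nearest and 61.5% in the farthest of the other HET mice. That mouse is the only Q150 HET mouse with a high number, and the high-number WT mice had 55.6% and 55.8%. The s share of Tpm2 in Q150 HOMO replicate 4 was 30.5%, against 13.2% in the nearest and 10.3% in the farthest of the other HOMO mice, on low counts. Changes of 4 members differed between models by a test of the difference in limma. The change of Pfkp in R6/2 HD differed from that in Q150 HOMO by -1.90 (adjusted p = 0.0148), the change of Mapk9 by 0.47 (adjusted p = 0.0339) and the change of Mef2a by -0.75 (adjusted p = 0.0018). Against Q175 HOMO, the change of Calu differed by -0.66 (adjusted p = 0.025) and that of Mef2a by -0.61 (adjusted p = 0.00185).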

How the results depend on the processing

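None of the 16 called changes and differences reversed under the 318 values of alternative settings: 276 kept the call and 42 lost it, and the cause was not tested. The changes of Calu, Mef2a and Pfkp in R6/2 HD, of Fgfr3 and Camk2d in Q150 HOMO and of Camk2d in Q175 HOMO, and both differences of Mef2a, kept the call under every alternative run. The number of members called in R6/2 HD was 4 to 7 under the settings other than leaving out a mouse, where 22.5% to 29.6% of all events passed. In Q150 HET it was 1 with all 10 knock-in WT mice, namely Camk2d at -0.83 (adjusted p = 0.0209), which is 1 of 14 members where 8.26% of all events passed, and in Q150 HOMO it was 6 after centring on the median event, where 18.3% of all events passed. The fit with all 10 knock-in WT mice pools WT of both lines, ages and file sets. In Q175 HOMO the number of members called was 1 without the variance trend (2.12% of all events) and 1 with the mouse-number range as a term (4.46%). With that term the difference of Calu between R6/2 HD and Q175 HOMO lost its call (limma adjusted p = 0.0864) and that of Mef2a kept it. Leaving out each mouse in turn gave 3 to 6 members in R6/2 HD, 2 to 4 in Q150 HOMO and 1 to 2 in Q175 HOMO. For differences of change it gave 1 to 3 between R6/2 HD and Q150 HOMO, 1 to 3 between R6/2 HD and Q175 HOMO, and 0 to 1 between Q150 HOMO and Q175 HOMO. These ranges show only how far single calls rest on single mice. They are not set against all events of the same fits and do not compare members with other events. The difference of Mapk9 moved to an adjusted p of 0.103 without the variance trend. The event of Fgfr3 could not be fitted with all 10 knock-in WT mice, because the Q175 set does not list it. No paired analysis was possible because the replicate numbers only name mice. Counts were lowest in Tpm2, Ubr2 and Camk2d, and the rare junctions of Pfkp and Fgfr3 had few counts.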
